A study of Mus musculus with 32 samples.

Results

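Histone H3 monomethylated at lysine 4 (H3K4me1) was compared between MLL-AF9 leukemias that arose from *Kat2a* WT and from *Kat2a* KO marrow. The peak lists of the H3K4me1 ChIP-seq libraries form this data set, and they hold 156603 of the 463075 peaks listed for 4 histone marks in 16 libraries. Replicate 2 of each genotype was the main list, with 45770 peaks in WT and 78042 in KO. The lists of replicate 1 have a median peak width of 49 bp, with 5368 peaks in WT and 27423 in KO, and served only as a check. All mice were *Kat2a* Flox/Flox and received pIpC, which switches on the interferon-responsive *Mx1* promoter of the Cre transgene. WT mice were Mx1-Cre -/- and KO mice were Mx1-Cre+/-, and excision leaves an in-frame product without the acetyltransferase domain. Lineage-depleted bone marrow was transduced with a retrovirus encoding the MLL-AF9 fusion and grafted into lethally irradiated mice. Marrow of terminal leukemias was pooled from 5 WT or 4 KO animals, and each H3K4me1 library was made from 500000 cells of the pool. The H3K27ac libraries had the same number of cells, and those of H3K4me3 and H3K9ac were made from more cells. The replicates of a genotype are separate cell samples and chromatin preparations of the same pool, so the spread between animals cannot be given.

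H3K4me1 marks enhancers, the distal sequences that raise transcription of a promoter, and also the shoulders of active promoters whose centre carries H3K4me3. It is written mainly by the methyltransferases MLL3 (*Kmt2c*) and MLL4 (*Kmt2d*) and is removed by LSD1 (*Kdm1a*). Kat2a acetylates H3K9, a mark of active promoters and enhancers, and does not itself methylate H3K4. In blood cells of the myeloid lineage, enhancers are typically bound by the transcription factors PU.1 (*Spi1*), the CEBP family and RUNX1.

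The sequences below are the 200 bp around the summits of peaks with the largest fold enrichment in their class: a WT peak overlapped by a KO peak, ranked by its WT enrichment, a WT peak overlapped by no KO peak and a KO peak overlapped by no WT peak. The peak in *Spi1*, which shares the largest fold enrichment of the WT list, was added after its value was seen. Coordinates are mm10, the forward strand is given 5′ to 3′, and capitals mark matches to the motifs searched, a CTCF core in *Bahcc1* and a CEBP site in *Flt3*.
Both genotypes, intron of *Bahcc1*, chr11:120280875-120281074: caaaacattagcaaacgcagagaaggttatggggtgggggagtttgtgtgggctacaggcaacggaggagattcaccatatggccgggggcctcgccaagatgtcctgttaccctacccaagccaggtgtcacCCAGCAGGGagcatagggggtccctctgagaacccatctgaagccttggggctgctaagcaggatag
Both genotypes, intron of *Spi1*, chr2:91089467-91089666: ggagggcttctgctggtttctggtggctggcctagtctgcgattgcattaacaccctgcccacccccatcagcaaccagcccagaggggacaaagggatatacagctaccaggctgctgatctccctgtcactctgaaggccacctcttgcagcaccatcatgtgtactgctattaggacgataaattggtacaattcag
WT only, intron of *Thegl*, chr5:77039954-77040153: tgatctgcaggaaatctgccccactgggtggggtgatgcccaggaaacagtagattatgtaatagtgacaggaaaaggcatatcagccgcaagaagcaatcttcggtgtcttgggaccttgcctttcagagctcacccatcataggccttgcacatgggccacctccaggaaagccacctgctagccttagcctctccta
KO only, intron of *Flt3*, chr5:147392212-147392411: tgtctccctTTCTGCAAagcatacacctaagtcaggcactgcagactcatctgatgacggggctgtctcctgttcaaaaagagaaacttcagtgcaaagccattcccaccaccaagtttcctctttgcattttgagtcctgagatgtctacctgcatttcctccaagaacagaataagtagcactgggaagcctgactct
*Spi1* encodes PU.1, a master regulator of the myeloid lineage. Its intronic peak reached a fold enrichment over background of 7.75 in WT (502 bp wide) and 6.91 in KO (882 bp wide) and overlapped H3K9ac and H3K27ac in both genotypes. The *Bahcc1* peak had the same enrichment of 7.75 in WT (1034 bp). The KO peaks that it overlapped included a narrow one of 279 bp at 2.34, and the largest enrichment among them was 3.76. The largest enrichment in the KO list was 9.54, in a peak shared with WT. The *Flt3* peak, in a receptor tyrosine kinase gene of progenitors and leukemia cells, had a fold enrichment of 8.91 over 628 bp in KO and overlapped H3K27ac in KO but not in WT. The nearest WT peak lay 1601 bp away with an enrichment of 2.49. The WT-only peak in *Thegl* reached 7.23 over 234 bp, overlapped no acetylation peak in either genotype, and had a KO peak 129 bp away with an enrichment of 3.82. Next by enrichment, WT-only peaks lay in an intron of the H3K9 demethylase gene *Kdm4a* and near *Cycs*, each at 6.94. KO-only peaks lay in *Ripor2* and near *Actb*, each at 7.63.

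The replicates differed before any comparison of genotypes. Of the WT replicate 1 peaks, 2391 (44.5%, 95% Wilson interval 43.2 to 45.9) overlapped the KO list of replicate 2, and only 902 (16.8%, 15.8 to 17.8) the WT list of replicate 2. With the KO list cut to the 45770 peaks with the largest −log10 p, 35.7% (34.5 to 37.0) did. The KO list covered 42.1 Mb of the genome, 29.4 Mb after the cut, and the WT list 11.5 Mb. Of the KO replicate 1 peaks, 1118 (4.08%) overlapped KO replicate 2 and 386 (1.41%) WT replicate 2. The q-value was 0.05 or less for 15703 peaks of WT replicate 2 and 65265 of KO replicate 2, but for 0 and 5 peaks in replicate 1. Read counts are not part of the lists, and the depth of each library is therefore unknown. With 1 main library per genotype no difference could be tested, and the 4 libraries as 2 against 2 allow no exact permutation p under 0.33. Intervals on shares of peaks cover counting error only, and neighbouring peaks are not independent. In bulk marrow, fewer cells with a mark and less of the mark per cell cannot be told apart. The KO list covered more of the genome than the WT list, also after the cut. The part of covered length in the overlap of WT replicate 1 was not tested. Whether genotype labels were exchanged was not tested either, so each difference between WT and KO is a difference between libraries with these labels. Likewise, with 1 main library for each, what is particular to a library and what is particular to a genotype cannot be told apart.

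The KO list was longer, and its peaks were wider. Its 78042 peaks were 1.71 times the 45770 of WT, and the covered length was 3.66 times as large. The median width was 215 bp in WT (quartiles 172 and 288.75) and 425 bp in KO (320 and 627), a ratio of 1.98. The narrowest peak had 164 bp in WT and 279 bp in KO, and 26.6% of WT and 14.2% of KO peaks were at most 10 bp wider than this floor, so the lists have different lower limits of width. At the wide end, 39 WT peaks (0.0852%) and 6532 KO peaks (8.37%) reached 1000 bp, and the widest had 1725 bp in WT and 6316 bp in KO. The median fold enrichment differed less, with 3.67 in WT and 3.43 in KO. When peaks at most 1000 bp apart were joined, 32468 regions remained in WT and 47707 in KO, and with the KO list cut to equal length 32113, which is 0.989 of WT. At equal length the KO median was 522 bp, but this cut takes away weak KO peaks, which are narrower, and so could not bring the widths closer. In replicate 1 the median was 49 bp in both genotypes, and the ratio of peak numbers was 5.11. With peaks of a q-value of 0.05 or less in both lists the ratio of peak numbers was 4.16, and with 0.01 it was 11.1.

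**Figure D1:**
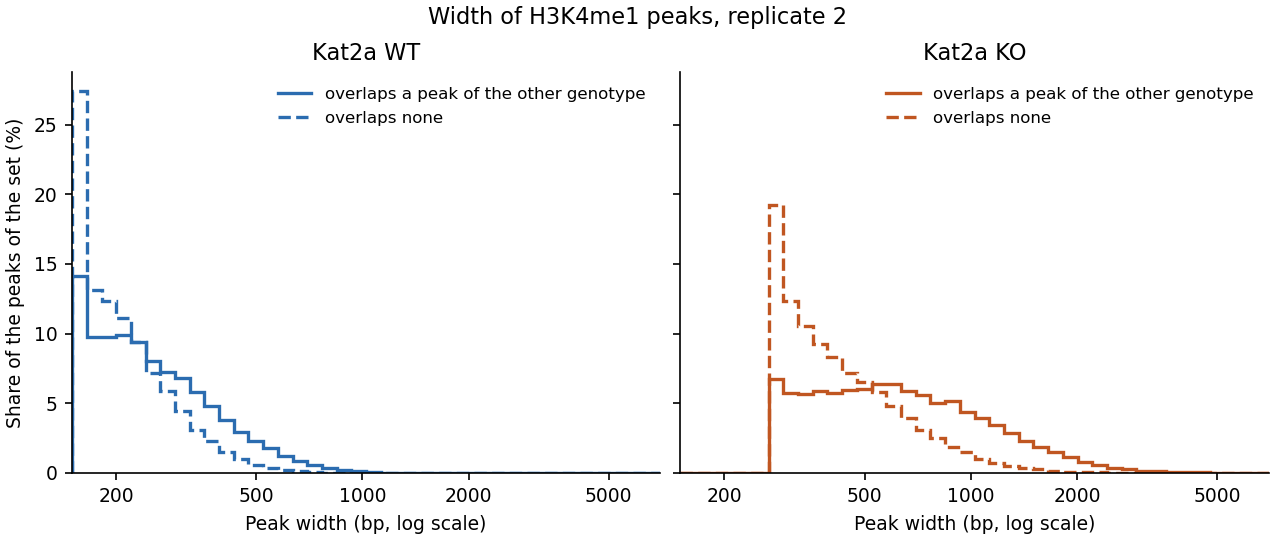
Share of H3K4me1 peaks (vertical axis, percent of the peaks of each set) by width in bp on a log scale, for WT (left) and KO (right) replicate 2. Solid lines are peaks that overlap a peak of the other genotype and dashed lines those that do not; the lists start at 164 bp in WT and 279 bp in KO, and shared peaks reach further to the right in both.

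The widest KO peaks each overlapped several WT peaks. The widest lay near *Egfl7* (6316 bp) and overlapped 7 WT peaks, as did the peak of 6184 bp in the cell cycle gene *E2f2*. Other wide peaks lay in *Mgll* (4751 bp, 4 WT peaks) and *Dhrs3* (4640 bp, 6 WT peaks). Of the shared KO peaks, 3806 (17.0%, 16.5 to 17.5) overlapped at least 2 WT peaks, while 1056 (4.05%) of the shared WT peaks touched at least 2 KO peaks. The WT list had its own dense runs. A chain of WT peaks at most 1000 bp apart had 13 peaks over 8218 bp in the kinase gene *Map3k9*, where KO had 6 peaks. The longest KO chain spanned 31491 bp in the phosphatase gene *Ptpre*, with 21 KO and 30 WT peaks, and a chain of 16047 bp in *Cdk6* had 19 KO and 12 WT peaks. These chains were chosen after their values were seen.

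A larger share of WT peaks overlapped KO peaks than the reverse, also at equal length. Of the WT peaks, 26043 (56.9%, 56.4 to 57.4) overlapped a KO peak, and of the KO peaks 22443 (28.8%, 28.4 to 29.1) overlapped a WT peak. At equal length the shares were 44.3% (43.8 to 44.7) and 36.2% (35.8 to 36.7). Peaks less than 500 bp apart raised them to 73.4% of WT and 42.7% of KO in the full lists. KO peaks covered 49.4% of the bases in WT peaks, and WT peaks covered 13.5% of the bases in KO peaks. When each peak was replaced by the 200 bp around its summit, 30.6% of WT and 17.7% of KO peaks overlapped. Sharing followed rank. With each list divided by −log10 p into 4 equal parts, 69.1% of the strongest and 45.8% of the weakest WT peaks were shared, and 47.9% and 18.1% of the KO peaks. Of the 5000 strongest WT peaks 3790 (75.8%) were shared, and of the 5000 strongest KO peaks 3252 (65.0%).

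**Figure D2:**
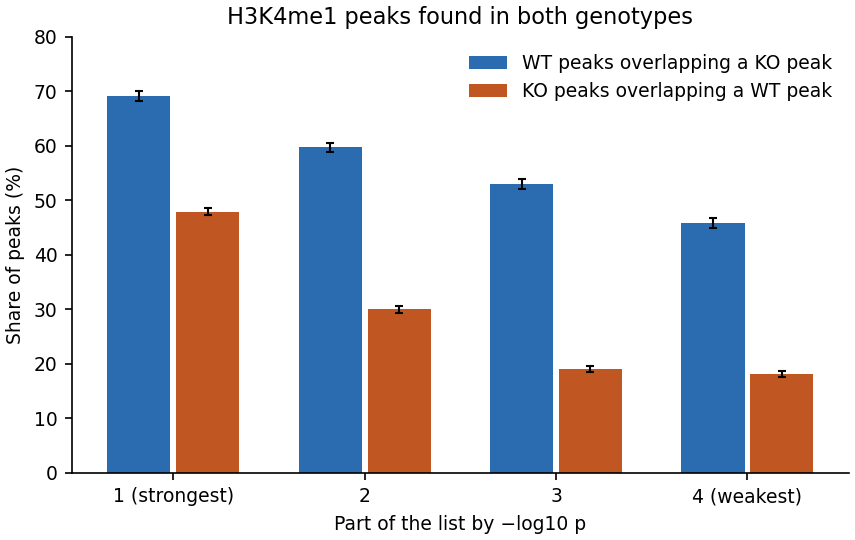
Share of WT peaks that overlap a KO peak and of KO peaks that overlap a WT peak (percent), for 4 equal parts of each list ranked by −log10 p; error bars are 95% Wilson intervals. From the strongest to the weakest part, WT goes from 69.1% to 45.8% and KO from 47.9% to 18.1%.

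Shared peaks were wider and stronger than the rest of their own list. Shared WT peaks had a median width of 235 bp and a median fold enrichment of 3.69, against 195 bp and 3.39 for WT-only peaks. Shared KO peaks had 593 bp and 3.72, against 386 bp and 3.29 for KO-only peaks. A q-value of 0.05 or less was reached by 41.1% of the shared WT and 25.4% of the WT-only peaks, and by 90.7% of the shared KO and 80.8% of the KO-only peaks. A wide peak has more room to overlap another, and the part of width in these shares was not tested beyond the summit windows.

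The lists were alike in position. A peak was called promoter when its centre lay between 1000 bp upstream and 500 bp downstream of a GENCODE M21 transcript start (TSS), and otherwise exon, intron or intergenic. In WT, 13.1% of the peaks (12.8 to 13.4) were at promoters, 59.1% in gene bodies and 27.8% intergenic. In KO, 15.1% (14.9 to 15.4) were at promoters, 58.3% in gene bodies and 26.5% intergenic. Promoters make up 4.56% of the genome under the same definition, gene bodies 41.6% and intergenic sequence 53.9%, so both lists leaned towards genes. Introns held most gene body peaks, 53.0% of all peaks in WT and 52.0% in KO, and exons 6.15% and 6.37%. Of the exonic peaks, 29.3% in WT and 29.0% in KO lay in coding sequence and 32.3% and 31.6% in untranslated regions alone.

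The promoter share was higher in KO by 2.04 percentage points (1.64 to 2.44), and at equal length by 2.33. Among the sets, KO-only peaks had the highest share, with 15.9% (15.5 to 16.2) at promoters in the full list and 16.8% (16.4 to 17.2) at equal length. Shared KO peaks, at 13.4%, lay within the intervals of shared WT peaks (13.1%, 12.7 to 13.5) and of WT-only peaks (13.1%, 12.6 to 13.6). Of the 4 sets in the full lists, WT-only peaks were the most often intergenic, with 29.5% (28.8 to 30.1) against 26.5% of shared WT and of KO-only peaks. The median distance from the centre to the nearest TSS was 6227 bp for WT-only, 5411 bp for shared WT, 5331 bp for shared KO and 4896 bp for KO-only peaks. In replicate 1 the order was the opposite, with 9.71% of WT and 4.11% of KO peaks at promoters. The KO list of replicate 1 was 48.0% intergenic with a median distance to the TSS of 16873 bp.

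**Figure D3:**
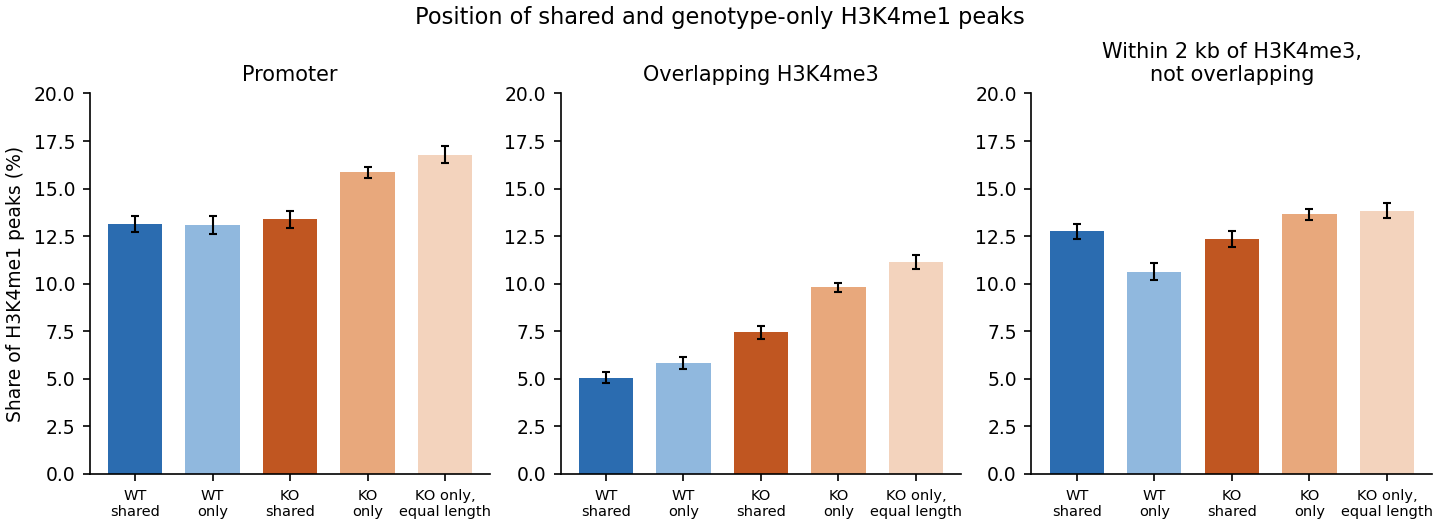
Share of H3K4me1 peaks (percent, with 95% Wilson intervals) at promoters, overlapping H3K4me3, and within 2 kb of H3K4me3 without overlap, for peaks shared between the genotypes and peaks of 1 genotype only. KO-only peaks have the highest shares in all 3 panels, at 15.9%, 9.81% and 13.6% in the full list.

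Next to H3K4me3, the KO list of replicate 2 had more H3K4me1. H3K4me3 regions of each genotype were those found in both H3K4me3 replicates, 12641 in WT and 13779 in KO. In the WT list, 5.39% (5.18 to 5.60) of the H3K4me1 peaks overlapped such a region, 11.8% (11.5 to 12.1) lay in its flanks of 2000 bp and 82.8% lay elsewhere. Of the KO peaks, 9.13% (8.93 to 9.34) overlapped, 13.3% (13.0 to 13.5) flanked and 77.6% lay elsewhere, and the shares at equal length were 9.76%, 13.2% and 77.0%. With the 200 bp around the summits, which removes the difference in width, 5.12% of WT and 6.68% of KO peaks overlapped, and 11.99% and 15.1% flanked. By set, 5.06% of the shared WT, 5.81% of the WT-only, 7.45% of the shared KO and 9.81% of the KO-only peaks overlapped H3K4me3, and 12.7%, 10.6%, 12.3% and 13.6% flanked it. The flank difference rests on the lists used. KO was 1.44 percentage points above WT with the regions found in both replicates, and 2.0 points below WT with the H3K4me3 list of replicate 1 alone (18.2% in WT and 16.2% in KO). In the H3K4me1 lists of replicate 1 the direction was also the opposite, with 9.63% of WT and 2.16% of KO peaks in flanks and 2.59% and 0.306% overlapping H3K4me3.

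Seen from the H3K4me3 regions, the difference was larger. A region counted as flanked on a side when an H3K4me1 peak reached into the 2000 bp beyond that edge. H3K4me1 lay on both sides of 974 WT regions (7.71%, 7.25 to 8.18) and of 4348 KO regions (31.6%, 30.8 to 32.3). With the H3K4me1 lists of replicate 1 these shares were 0.0870% in WT and 0.0726% in KO. In replicate 2, no H3K4me1 lay on either side of 58.8% of the regions in WT and of 24.97% in KO. With the KO list cut to equal length, 16.0% (15.4 to 16.6) had it on both sides and 43.3% on neither. These KO peaks were still wider than the WT peaks, with medians of 522 and 215 bp. With summit windows of the full lists, 7.51% of regions in WT and 27.5% in KO had H3K4me1 on both sides. Length and width were not made equal together here, and the part of width was not tested. Regions of 2000 to 4000 bp were flanked more often than regions of 500 to 1000 bp in each list. Among the regions present in both genotypes, H3K4me1 lay on both sides of 5.32% in WT, 24.4% in KO and 11.8% in KO at equal length for those of 500 to 1000 bp, and of 15.5%, 55.3% and 33.4% for those of 2000 to 4000 bp. The 496 regions under 500 bp and the 58 over 4000 bp had it on both sides in 7.46% and 10.3% in WT, 26.01% and 51.7% in KO, and 11.5% and 39.7% in KO at equal length, the only list in which each wider class had the larger share.

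Both genotypes showed, around active promoters, a gap at the TSS and shoulders on either side. Of the 6773 protein-coding TSS under H3K4me3 in both genotypes, 0.561% were covered by an H3K4me1 peak in WT and 3.03% in KO. Coverage rose to a maximum of 4.18% at 800 bp upstream and 5.48% at 900 bp downstream in WT. In KO it reached 19.5% at 700 bp upstream and 25.4% at 1000 bp downstream, and at equal length 12.9% and 16.7% at the same distances. The downstream shoulder was thus the higher in each list. The downstream maximum was 9.76 times the coverage at the TSS in WT, 8.38 times in KO and 9.12 times in KO at equal length. With peaks replaced by the 200 bp around their summits, the shoulders stood at 3.43% upstream and 4.84% downstream in WT and at 5.15% and 7.10% in KO at equal length. The downstream maximum was then 7.81 times the coverage at the TSS in WT and 16.6 times in KO at equal length. These ratios divide by few covered TSS, 42 in WT and 29 in KO at equal length. In WT the lowest coverage lay 100 bp downstream, at 26 TSS. The depth of the gap thus changed with the width of the peaks used and rests on small counts. At the 12553 TSS covered by no H3K4me3 peak in any library, WT coverage was 0.98% at the TSS and at most 1.28% downstream, and KO coverage was 3.58% and at most 5.11%.

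**Figure D4:**
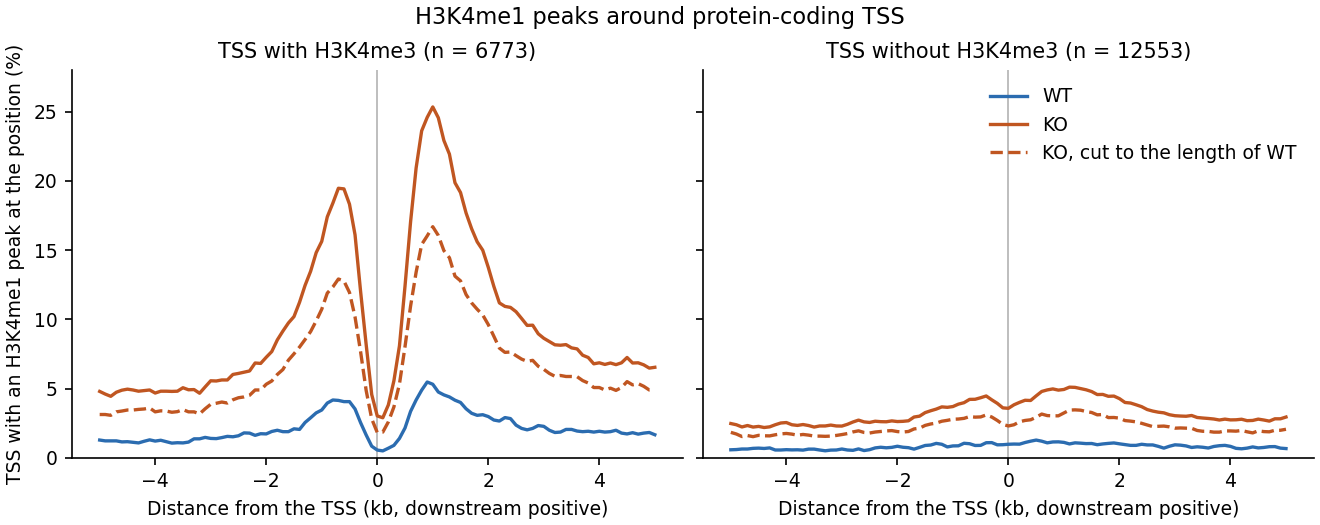
Share of protein-coding TSS (percent) with an H3K4me1 peak at each distance from the TSS in kb, downstream positive, for 6773 TSS with H3K4me3 in both genotypes (left) and 12553 without (right). Lines are WT, KO and KO cut to the length of the WT list; all 3 have a gap at marked TSS with shoulders on both sides, highest in KO at 25.4% and lowest in WT at 5.48%.

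Peaks found in both genotypes were acetylated more often than peaks of a single genotype. H3K27ac of the same genotype (replicate 2, 29757 peaks in WT and 46047 in KO) overlapped 32.8% (32.2 to 33.3) of shared WT and 12.2% (11.7 to 12.6) of WT-only peaks. In KO it overlapped 58.4% (57.8 to 59.1) of shared and 33.7% (33.3 to 34.0) of KO-only peaks. H3K9ac, the mark Kat2a writes, overlapped 29.0% of shared WT and 14.1% of WT-only peaks, and 25.6% of shared KO and 17.4% of KO-only peaks. The order held for distal peaks, those outside promoters and more than 2 kb from H3K4me3. H3K27ac overlapped 31.4% of the shared and 8.90% of the WT-only distal peaks in WT, and 55.5% and 26.9% in KO, where the second value is for KO-only peaks. H3K9ac overlapped 21.9% of the shared and 6.17% of the WT-only distal peaks, and 16.5% of the shared and 5.96% of the KO-only distal peaks. The share of shared distal peaks with H3K9ac was thus higher in WT and that with H3K27ac higher in KO. The lists of these marks differ in length in the same directions, with 21458 H3K9ac regions in WT and 18783 in KO, and their part in the shares was not tested. Shared peaks are wider, and the part of width in these shares was not tested. Acetylation of the other genotype can also be read on these peaks, since 19.3% of the WT-only peaks overlapped an H3K27ac peak of KO and 16.1% of the KO-only peaks an H3K27ac peak of WT.

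Genes of the myeloid lineage carried H3K4me1 in both genotypes, and so did some markers of other cell types. A peak in the gene or within 10 kb on either side was found for 52.9% of the 21911 protein-coding genes in WT, for 64.3% in KO and for 54.9% in KO at equal length. All 15 myeloid effector and receptor genes had a peak in both lists, with *Itgam*, the integrin CD11b, at 14 WT and 15 KO peaks, and *Elane*, neutrophil elastase, at 6 and 12. Of 10 myeloid transcription factors, 9 had a peak in WT and 10 in KO. Of 10 neural, liver and muscle markers, 2 had a peak in WT and 4 in KO, and *Alb*, *Ttr*, *Myod1* and *Myh6* had none in either. Of 10 T and NK cell markers, 4 had a peak in WT and 5 in KO, and *Cd4*, *Cd8a*, *Bcl11b*, *Gzma* and *Ncr1* had none in either. *Cd3g* had 8 WT and 5 KO peaks. The neighbours *Cd3d*, *Cd3e* and *Cd3g* can share peaks within their margins. Of 8 B cell markers, 5 had a peak in WT and 8 in KO. *Igll1* had 8 WT and 4 KO peaks and *Vpreb1* 5 and 2. These neighbours have overlapping margins, so a peak they share is counted for each. Of 12 erythroid and megakaryocyte markers 7 had a peak in WT and 9 in KO, and the globin gene *Hba-a1* and the heme synthesis gene *Alas2* had none in either. In the same list *Gp1bb* had 6 WT and 5 KO peaks, and *Klf1* 2 and 8. Of 8 stromal and endothelial markers 5 had a peak in each, and *Cxcl12* and *Lepr* had none. These shares lie on both sides of the background of all genes. The median count per gene in WT, KO and KO at equal length was 2, 4 and 2 for the B cell markers and 5, 10 and 7 for the myeloid effector genes, against 1, 2 and 1 over all protein-coding genes. Summed counts in WT, KO and KO at equal length were 20, 30 and 16 for B cells, 16, 16 and 5 for T and NK cells, 18, 29 and 15 for erythroid cells and megakaryocytes, 7, 12 and 4 for stroma and endothelium, and 90, 152 and 101 for the 15 myeloid effector genes. The part of other cells in the peak lists was not tested.

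At equal length the KO list gave more peaks than WT at 28.2% of the protein-coding genes and fewer at 23.2%. Numbers were equal at 10647 of the 21911 genes, and 7097 genes had no peak in either full list, so both shares are lowered by genes without peaks. Of the 15 genes of the MLL-AF9 programme, targets or effectors of the fusion, 10 had more and 4 fewer. A peak was found at 13 of them in WT, 15 in KO and 14 in KO at equal length. In the full lists their summed count was 226 in WT and 471 in KO, and 275 in KO at equal length, with medians per gene of 10, 20 and 12. *Hoxa9*, which sustains self-renewal of MLL-rearranged leukemia, had 0 WT peaks and 8 KO peaks, of which 4 remained at equal length. *Hoxa10* had 0 and 7 peaks, with 4 at equal length, and *Hoxa7* 1 and 10, with 5. These neighbouring loci overlap and share peaks, so they are not separate observations. The counts include the margins of 10 kb. Within the gene bodies WT had 0 peaks in each. KO had 1 in *Hoxa9*, 0 in *Hoxa10* and 5 in *Hoxa7*, and at equal length 0, 0 and 2. In WT the *Hoxa9* locus still held 4 H3K4me3 regions and 7 H3K27ac peaks, against 5 and 4 in KO. *Meis1*, the cofactor of Hoxa9, had 22 WT and 44 KO peaks, with 30 at equal length. *Mef2c* had 20, 59 and 32 peaks in the same order, *Jmjd1c* 22, 53 and 33, *Zeb2* 13, 46 and 22, and *Bcl2*, an inhibitor of apoptosis, 10, 28 and 18. *Myb* had 12 peaks in WT and 20 in KO, and 12 at equal length. *Cdk6*, a cell cycle kinase on which these leukemias depend, had 62 and 87, and 54 at equal length, so the direction turned with the length of the list. *Runx2* had 46 and 75, and 47. The genes with fewer peaks at equal length included *Pbx3* (3 in WT and 1 in KO), *Eya1* (8 and 5) and *Cdk6*.

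Among myeloid transcription factors, 4 of 10 had more and 4 fewer KO peaks at equal length, where 28.2% of all protein-coding genes had more and 23.2% fewer. *Gfi1*, a repressor needed for neutrophil differentiation, had 2 peaks in WT, 14 in KO and 10 at equal length. *Irf8*, which directs monocyte fate, had 2, 7 and 4, and *Cebpe*, a factor of late granulocyte development, 3, 11 and 4. *Spi1* had 19 in WT, 26 in KO and 19 at equal length, and *Runx1* 39, 63 and 45. *Cebpa* had 5, 5 and 4, *Cebpb* 7, 7 and 6, and *Cebpd* 3, 2 and 1. Of the 15 myeloid effector and receptor genes, 7 had more and 6 fewer at equal length, against the same shares of all genes. *Ltf*, lactoferrin of neutrophil granules, had 3 in WT and 9 in KO at equal length, and *Prtn3*, proteinase 3 and a neighbour of *Elane*, 7 and 10. *Itgam* had 14 and 12, and *Csf1r*, the receptor of macrophage colony-stimulating factor, 9 and 7. *Mpo*, myeloperoxidase, had 8 in WT and 14 in KO, and 7 at equal length. Stem and progenitor transcription factors had 5 genes with more and 3 with fewer of 10. *Etv6* had 64, 119 and 83 peaks, *Erg* 31, 52 and 35, and *Fli1* 28, 37 and 28. *Tal1* had 0, 4 and 3, *Gata2* 1, 5 and 3, and *Lmo2* 16, 18 and 13.

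**Figure D5:**
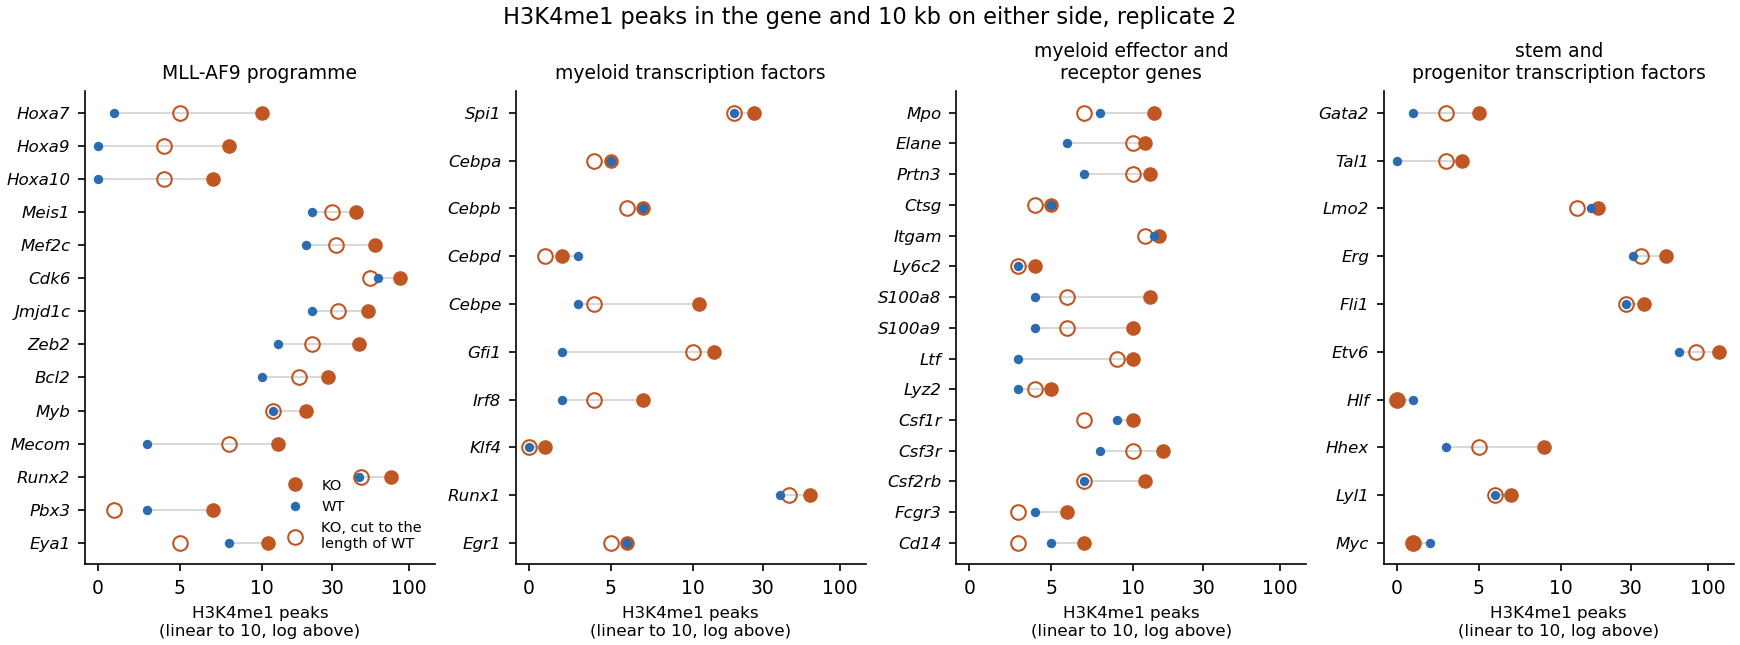
Number of H3K4me1 peaks in each gene and 10 kb on either side (horizontal axis, linear to 10 and logarithmic above) in WT, KO and KO cut to the length of the WT list, 1 value per library and gene. KO exceeds WT at most genes in the full lists, as at *Hoxa9* (0 and 8), and open circles for equal length lie on both sides of WT, as at *Gfi1* (2 and 10) and *Csf1r* (9 and 7).

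The enzymes of H3K4 methylation had more KO peaks at equal length in 8 of 11 genes and fewer in 2, against 28.2% and 23.2% of all protein-coding genes. Those shares also count the 7097 genes without a peak in either list. A peak was found at 8 of the 11 enzyme genes in WT and at all 11 in KO, against 52.9% and 64.3% of all genes. *Kmt2d* had 2 peaks in WT, 11 in KO and 6 at equal length, *Setd1b* 6, 15 and 11, and *Kmt2a*, whose human counterpart forms the fusion, 3, 6 and 4. The demethylase genes *Kdm1a* and *Kdm5c* had 0 WT peaks, and 3 and 2 KO peaks. *Kmt2c* had 4, 5 and 3, and *Kdm1b* 2, 1 and 1. *Kat2a* itself had 0 WT and 2 KO peaks in its body, and 6 and 9 with the margin of 10 kb. Counts of peaks do not check the excision of its exons.

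The genes with most H3K4me1 peaks in their bodies were large, and 6 of the 8 leading genes were common to both lists. The first place in both was held by *Gm20388*, a read-through model of 4434.9 kb that spans many other genes (309 WT and 494 KO peaks), followed by *Fgfr2*, annotated at 2960.9 kb (96 and 132). Next in WT came *Ptpre* with 71 peaks, the transcriptional cofactor gene *Zmiz1* with 69, *Foxp1* with 67, *Arid1b*, a subunit of the BAF remodelling complex, with 65, *Etv6* with 64 and *Cdk6* with 59. In KO they came in another order, with *Foxp1* at 119, *Etv6* at 117, *Baz2b* at 97, *Cdk6* at 85, *Arid1b* at 84 and *Fam107b* at 79. *Ptpre* had 71 KO peaks, the same number as in WT, and 47 at equal length. *Arid1b* had the most peaks without a partner in KO at equal length after the 2 largest models, with 45 of 65, and *Etv6* had 51 of 82 KO peaks without a partner in WT. *Baz2b* stood in both groups, with 37 WT-only and 38 KO-only peaks at equal length. *Asap1* was among the leaders in WT-only peaks (30) and *Fam107b* among those in KO-only peaks (37). Per length, the densest genes of at least 20 kb included *Vps37b* (8.32 peaks per 10 kb), *Il17ra* (6.99) and *Cotl1* (6.70) in WT. In KO they included *Cmtm7* (7.59), *Mapkapk3* (6.58), *Slpi* (6.57) and *Dapp1* (6.33). These genes were picked for their density. In the body of *Vps37b*, *Il17ra* and *Cotl1*, KO had fewer peaks than WT (17, 14 and 17 against 23, 17 and 21). With the margin of 10 kb the counts were 18, 22 and 20 in KO against 24, 20 and 21 in WT. The covered length with the margin was larger in KO in each, as in *Il17ra* with 5.63 kb in WT and 18.39 kb in KO.

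Peaks were spread over chromosomes 1 to 19 alike, but not over X. On chromosomes 1 to 19 the ratio of KO to WT peak numbers lay between 1.65 and 1.81, and at equal length between 0.958 and 1.06. The X chromosome held 307 WT and 456 KO peaks, but only 177 of the KO peaks at equal length, a ratio of 0.577 to WT. Its share of the peaks was 0.671% in WT and 0.584% in KO, below the 1.49% to 2.81% of the replicate 2 lists of H3K27ac and of all lists of H3K4me3 and H3K9ac. The replicate 1 lists of H3K27ac lay outside this range, with 3.69% in WT and 0.587% in KO. In the H3K4me1 lists of replicate 1 the order was the opposite, with 0.931% in WT and 1.21% in KO.

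The DNA under the summits was alike in composition between the genotypes. In the 200 bp around the summit, 47.9% of the bases were G or C in WT and 47.6% in KO, against 41.7% over all windows of 200 bp that tile the genome. Repeats, the soft-masked bases of the GRCm38 sequence, took up 16.4% in WT and 17.0% in KO, against 36.4%. The PU.1 motif GAGGAAG was found in 9.96% (9.69 to 10.2) of the WT and 9.89% (9.68 to 10.1) of the KO windows, against 5.94% of all windows. The RUNX motif TGTGGT was found in 16.8% and 16.5%, against 13.7%, and the CTCF core CCANNAGGG in 3.99% and 3.58%, against 2.31%. The CEBP motif TTGCNNAA, at 9.24% and 9.27%, lay near the 9.38% of all windows, as did the AP-1 motif TGANTCA at 6.04% and 6.35%, against 5.94%. The GATA motif AGATAA, rich in A and T, was found in 9.62% and 10.1%, below the 13.4% of all windows. Both strands were searched, and none of the 6 motifs contains another. The part of base composition in these shares was not tested.

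Shared and genotype-only peaks also differed little in these motifs. PU.1 was found in 10.2% of shared WT, 9.65% of WT-only, 10.2% of shared KO and 9.75% of KO-only windows, and RUNX in 17.0%, 16.6%, 17.0% and 16.4%. In the same order CEBP was found in 8.84%, 9.75%, 8.98% and 9.39%, and GATA in 9.24%, 10.1%, 9.45% and 10.4%. AP-1 was found in 5.86%, 6.29%, 5.95% and 6.51%. CEBP, GATA and AP-1 were thus more frequent in the genotype-only windows of each list, and PU.1, RUNX and CTCF less frequent. CTCF was lowest in KO-only windows, at 3.40% (3.26 to 3.56), and highest in shared WT windows, at 4.28% (4.04 to 4.53). G and C made up 48.7% of the bases in shared WT, 46.8% in WT-only, 48.6% in shared KO and 47.2% in KO-only windows. The lists of replicate 1 fell apart by the same measures. In WT replicate 1, PU.1 was found in 9.50% of the windows and G and C made up 46.2% of the bases. In KO replicate 1 the values were 5.92% and 40.9%, and GATA was found in 14.8%, all near the values of the whole genome. Only 2.46% of the KO replicate 1 peaks overlapped H3K27ac of KO and 1.04% H3K9ac of KO, against 16.1% and 16.7% of the WT replicate 1 peaks for H3K27ac and H3K9ac of WT.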

How the data were processed

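Peak lists of H3K4me1 ChIP-seq (Illumina, 50 bp single reads) were analysed, with those of H3K4me3, H3K9ac and H3K27ac for the relation to other marks. The authors used BWA for alignment and MACS2 for peak calling, and the submitters' processing notes name both with the mm10 build. Their versions are not given in the sources used here. Each deposited peak carries its summit's fold enrichment over background, a ratio, with −log10 p and −log10 q. Depth is unknown. The study's methods name a q-value threshold of 0.05, but the lists start at a p-value near 0.01. The authors excluded an H3K4me1 replicate that the methods do not name. The inputs were not analysed here, and the H3K27ac lists of replicate 1 were used only for chromosome shares.

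All peaks lay on the autosomes, X or Y. Overlap meant at least 1 bp. H3K4me3 and H3K9ac regions were merged peaks found in both replicates, and H3K27ac was replicate 2. For equal length, the KO list was cut to its 45770 peaks with the largest −log10 p. Positions were set against GENCODE M21. Sequences are from RefSeq's GRCm38.p6. Genes named are the members of fixed lists, the 8 with most peaks, the 5 of at least 20 kb with most per 10 kb, the 5 with most WT-only and KO-only peaks at equal length, and the 3 peaks per class with the largest fold. Some of these genes are not reported here. Members and lists were chosen with earlier results of these data known. No test was made, and shares carry 95% Wilson intervals. Other thresholds, overlaps, promoter and flank definitions and replicates were tried. Code in Python 3.11.15 with NumPy 2.4.6, pandas 2.3.3 and matplotlib 3.10.9 was tested on simulated intervals, where 100 of 100 comparisons matched bedtools.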

Additional observations from a re-analysis of the deposited data

How the results depend on the processing

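Of 65 values under alternatives, 24 stayed close to the value reported, 37 moved and 4 changed direction. Shares and differences counted as close only inside the interval of the main value, while ratios, which have no interval, were judged more loosely. No paired analysis was possible because the results come from no test and rest on 1 library per genotype. The ratio of KO to WT peak numbers was 4.16 at a q-value of at most 0.05 and 11.1 at 0.01, and with the replicate 1 lists alone 5.11. The ratio of genes with a peak in the body was 1.38 in the full lists. At equal length it fell to 1.08 by −log10 p and 1.09 by fold, which still counted as close. It was 2.39 and 5.01 at these q-values and 2.51 in replicate 1. The ratio of widths was 1.00 in replicate 1. The share of WT peaks in KO peaks was 63.6% and 67.1% at the q-values of 0.05 and 0.01, 44.3% and 43.0% at equal length by −log10 p and by fold, 47.1% with an overlap of 50% of the shorter peak, 73.4% for peaks at most 500 bp apart, 30.6% for summit windows and 0.540% in replicate 1. The share of KO peaks in WT peaks was, in the same order, 14.5%, 6.04%, 36.2%, 35.2%, 23.6%, 42.7%, 17.7% and 0.106%. The promoter difference, KO minus WT in percentage points, was 2.54 at a q-value of 0.01, 3.62 with promoters of 2500 bp, 4.51 for any overlap with a promoter and -5.60 in replicate 1. The flank difference was 1.86 at a q-value of 0.01, 3.07 for summit windows, 0.712 with H3K4me3 regions of both genotypes, 2.04 without H3K4me3 replicate 1, -2.0 without H3K4me3 replicate 2 and -7.47 with the H3K4me1 lists of replicate 1. The difference in H3K4me3 regions with H3K4me1 on both sides was 16.7 at a q-value of 0.01, 8.26 and 7.99 at equal length by −log10 p and by fold, 19.03 and 26.6 with flanks of 1000 and 5000 bp, 20.03 for summit windows, from 19.96 to 24.5 without an H3K4me3 replicate and -0.0144 with the H3K4me1 lists of replicate 1. Cutting to equal length removes KO peaks by construction; the cause of the other changes was not tested. The summit windows were chosen after seeing the data. Depth is unknown, so a peak missing from a list was not detected there, which does not show that the mark is absent.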
